A study of Mus musculus with 10 samples.

Results

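The regions described here are the stretches of H3K4me3 in mouse CA1 neurons that lie in the antigen receptor loci, the clusters of gene segments from which lymphocytes assemble antibodies and T cell receptors. H3K4me3, histone H3 with 3 methyl groups on lysine 4, had been mapped by chromatin immunoprecipitation and sequencing. A region is a stretch of the mm10 genome covered by a peak in at least 1 of 8 libraries, with overlapping or touching peaks joined. Members were the regions inside 5 windows: the immunoglobulin heavy chain locus Igh (chromosome 12, 113200000 to 116100000), the kappa light chain locus Igk (chromosome 6, 67500000 to 70800000), the lambda light chain locus Igl (chromosome 16, 19000000 to 19300000), the T cell receptor beta locus Tcrb (chromosome 6, 40890000 to 41560000) and the joint T cell receptor alpha and delta locus Tcra and Tcrd (chromosome 14, 52500000 to 54200000). They number 2183 of 137922 regions in all, of which 1579 lie in Igh, 321 in Igk, 144 in Igl, 6 in Tcrb and 133 in Tcra and Tcrd. The members were chosen by position and by the presence of a peak, so presence in at least 1 library is a description and not a result. Of the 2183, 762 had a peak in 1 library alone, at the edge of that rule, 1421 had one in at least 2 libraries and were tested, and 325 had one in all 8.

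The libraries came from 4 CamkdeltaC transgenic and 4 littermate control samples, all male and 3 months old. CA1 tissue of the hippocampus had been frozen, nuclei carrying the neuronal protein NeuN had been sorted, and 0.2 µg of chromatin had been precipitated with an antibody to H3K4me3. CamkdeltaC stands for the C form of CaM kinase II delta, a kinase that is switched on by calcium and calmodulin. The labels name neither a mouse strain nor the promoter that drives the transgene, and nothing in them says that the 4 libraries of a group came from separate animals. What the p-values measure is therefore the spread among the libraries of a group, which may be technical. The protocol text has controls drinking vehicle and transgenic mice drinking either vorinostat or vehicle, and no label says which of the 2 applied to a library used here. The 2 samples called input in their titles and IgG in their antibody label were not analysed here.

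Peaks covered 45.2 to 57.7 Mb in the transgenic and 37.5 to 43.1 Mb in the control libraries, groups that do not overlap, and the transgenic mean was 1.19 times the control mean. Transgenic replicate 1 stood apart with 102285 peaks, against 51903 to 66811 in the other 7, so totals below are also given without it. Read depth is unknown, since the lists hold no counts. Many antigen receptor segments are near-identical copies of each other, and how reads that fit several places were treated is not given in the sources used here, so coverage cannot always be assigned to a single copy. All 8 neuronal and all 5 CA1 pyramidal marker genes examined had a peak within 2 kb of a gene end in all 8 libraries. Such a peak was found in all 8 libraries for 6 of 16 B cell genes, 3 of 17 T cell genes and 1 of 10 genes of microglia and other leukocytes, against 62.2% of 21887 protein-coding genes.

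In lymphocytes the V, D and J segments of these loci are cut and joined by the RAG1 and RAG2 recombinase to form 1 coding exon, which is then spliced to a constant region. The recombinase holds a domain that binds H3K4me3, and in developing lymphocytes this mark is found over the J segments at which recombination begins. Neurons do not assemble antigen receptors, and H3K4me3 is otherwise best known from promoters of active or poised genes, above all those rich in CpG.

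The windows also hold ordinary genes, whose promoters show what a promoter peak looks like beside the segments. None of the 631 segments in the annotation has an entry in the promoter table used here (RefSeq, GRCm38.p6), while 32 other genes in the windows do, each as 250 bases before to 50 after the start. Of these 32 promoters, 4 were covered at least in part in all 8 libraries: those of Zfp386, Vipr2 and the noncoding RNA Gm46383, at the V end of the Igh window, and that of Rpia, at the constant end of the Igk window. At Gm46383 only 2 to 96 bases were covered. Shown first are 2 of the 4, Zfp386, which encodes a zinc finger protein, and Rpia, which encodes the ribose 5-phosphate isomerase of the pentose phosphate pathway. Adam6a and Adam6b, a pair of genes of sperm proteins that lie among the Igh segments and had no peak at the promoter in any library, follow. Capitals mark CpG, 17 in Zfp386, 24 in Rpia, 1 in Adam6a and 0 in Adam6b, and all are printed 5′ to 3′ on the strand of the gene.
Zfp386 promoter, chr12:116047474-116047773, plus strand: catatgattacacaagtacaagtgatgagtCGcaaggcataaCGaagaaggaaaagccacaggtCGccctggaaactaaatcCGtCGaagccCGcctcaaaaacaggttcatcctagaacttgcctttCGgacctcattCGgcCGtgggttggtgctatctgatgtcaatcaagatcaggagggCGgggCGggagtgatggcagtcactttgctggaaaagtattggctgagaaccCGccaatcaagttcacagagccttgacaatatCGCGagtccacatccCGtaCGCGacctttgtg
Rpia promoter, chr6:70792126-70792425, minus strand: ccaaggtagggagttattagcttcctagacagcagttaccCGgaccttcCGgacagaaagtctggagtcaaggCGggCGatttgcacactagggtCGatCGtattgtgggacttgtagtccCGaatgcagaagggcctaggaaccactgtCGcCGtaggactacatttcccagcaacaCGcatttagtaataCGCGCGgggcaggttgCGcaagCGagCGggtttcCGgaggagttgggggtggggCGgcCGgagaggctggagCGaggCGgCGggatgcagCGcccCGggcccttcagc
Adam6a promoter, chr12:113543658-113543957, plus strand: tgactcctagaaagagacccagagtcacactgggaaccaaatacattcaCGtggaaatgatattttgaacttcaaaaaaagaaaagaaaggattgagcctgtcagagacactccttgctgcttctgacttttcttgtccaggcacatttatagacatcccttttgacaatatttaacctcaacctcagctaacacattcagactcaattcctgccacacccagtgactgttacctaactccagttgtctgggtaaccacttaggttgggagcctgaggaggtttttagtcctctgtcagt
Adam6b promoter, chr12:113489315-113489614, plus strand: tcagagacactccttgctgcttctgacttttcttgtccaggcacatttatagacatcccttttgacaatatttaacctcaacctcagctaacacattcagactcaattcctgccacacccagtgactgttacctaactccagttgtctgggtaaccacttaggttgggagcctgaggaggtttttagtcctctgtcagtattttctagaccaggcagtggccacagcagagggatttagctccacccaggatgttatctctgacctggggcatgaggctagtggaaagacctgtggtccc
The 4 promoters covered at least in part in all 8 libraries held a median of 17.5 CpG (5 to 24, the 5 at Gm46383). The other 28 held a median of 1 (0 to 8), against 7 over 32851 promoters of this length. The octamer ATGCAAAT, the best known element of immunoglobulin V promoters, was searched on both strands and found in 2 of the 32 promoters, those of the noncoding RNA genes LOC108169192 in Igk and Gm35545 in Igl, which had a peak at the promoter in 1 and 2 libraries. It occurs in 1.74% of all promoters of the same length.

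Igh carried most of the coverage found in these loci, and it carried more in the transgenic than in the control libraries. The covered length was 883145, 534492, 523955 and 536860 bp in transgenic replicates 1 to 4 and 356357, 370456, 373255 and 375354 bp in control replicates 1 to 4. The groups do not overlap, and transgenic replicate 1 lies far above the other 3. The means were 619613 ± 175778 and 368856 ± 8570 bp (SD, n = 4 each), a ratio of 1.68, and 1.44 without transgenic replicate 1. A higher transgenic mean was not particular to Igh. The ratio was 2.29 in Igk, 1.87 in Igl, 2.07 in Tcra with Tcrd and 1.16 in Tcrb, although the groups overlap in all of these. In each control library 12.3 to 12.9% of the window was covered, and in the transgenic libraries 18.1 to 30.5%. As a share of each library's own coverage, Igh made up 0.868 to 0.951% of control and 1.10 to 1.53% of transgenic coverage, which again do not overlap. The 4 transgenic libraries also exceeded all controls when peaks with a −log10 q of at least 3, or equal numbers of top-ranked peaks, were used. No p is given for a total over a window, since the windows were chosen with earlier results known.

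**Figure D1:**
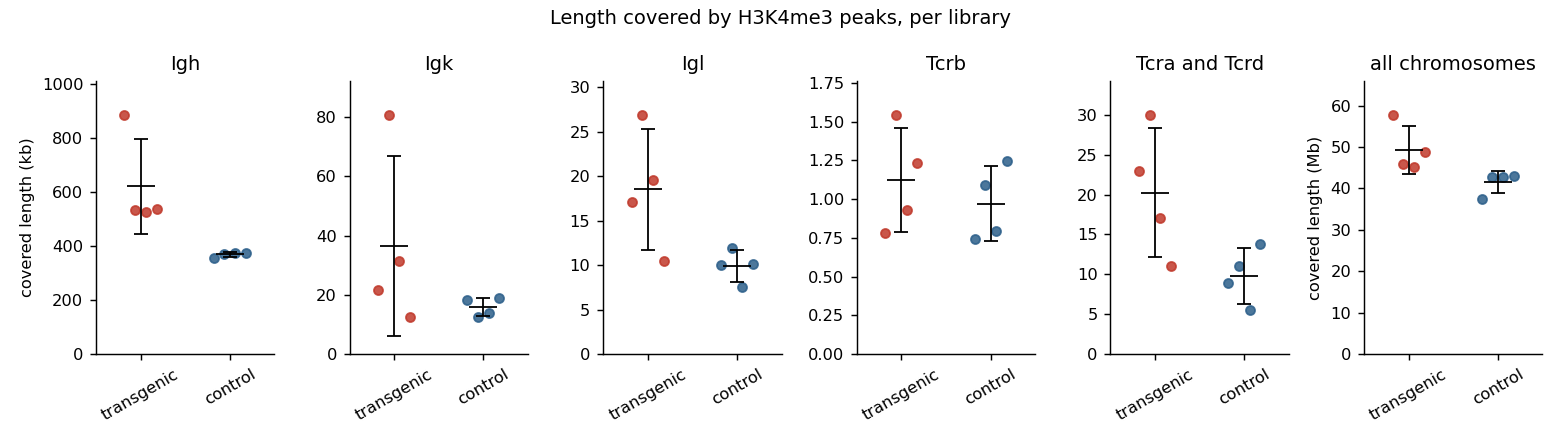
Length covered by H3K4me3 peaks in each of the 5 windows (kb) and on all chromosomes (Mb), with each point a library, the long tick the group mean and the bars 1 SD (n = 4 each). The 4 transgenic libraries lie above all 4 controls in Igh and over the whole genome. In the other 4 windows the groups overlap, and the transgenic mean is the higher one there too.

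The excess ran along the whole of Igh, and the group means were close in the nearest well covered bin beyond each end. The window was divided into 29 bins of 100 kb, and in 27 of them every transgenic library exceeded every control library, against 4.94% of 15339 bins tested over the genome. None of the 29 had lower transgenic values without overlap, against 0.293% of all bins. The same 27 of 29 was found without transgenic replicate 1, where 8.19% of all bins stood apart in this direction. With each library scaled to the mean total coverage it was 21 of 29, against 2.58% of all bins higher and 7.73% lower. The log2 difference of the 29 bins, centred on each library's typical bin, ranged from 0.42 to 1.11 with a median of 0.64, against -0.02 over all bins.

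In limma none of the 15339 bins passed an adjusted p of 0.05, and 25 of the 29 Igh bins had an unadjusted p under 0.05 with higher transgenic values and 0 with lower, against 5.30% and 2.46% of all bins. Without transgenic replicate 1, 6 bins passed, none of them in the 5 windows. The Igh bins with the smallest p start at 114900001 and 113400001. The bin from 114900001 to 115000000, among V segments, held 38958, 22284, 24928 and 22613 bp in the transgenic and 11491, 13764, 15281 and 13559 bp in the control libraries, groups that do not overlap. The difference was 0.89 ± 0.21 (log2, SE, limma adjusted p = 0.558). The bin from 113400001 to 113500000, which holds Ighd, Ighm, the J segments and most D segments, had 40595, 30920, 24916 and 25308 against 14784, 18586, 15842 and 16812 bp, a difference of 0.78 ± 0.19 (log2, SE, limma adjusted p = 0.558). The lowest transgenic library was again above the highest control.

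Igh is also among the most densely covered stretches of the genome in these neurons. Over all 8 libraries 26 of the 29 bins had a mean coverage above 6909 bp, the 95th percentile of 27231 bins, and 13 were above the 99th. The bin at 115600001 held 34571 to 36919 bp in control libraries, more than 1 base in 3. Beyond the V end, the next bin, from 116100001, held 0 bp in all 4 control libraries and a mean of 50.0 bp in the transgenic ones. A bin so nearly empty cannot show whether the excess ended there. The bin after it, from 116200001, held means of 3772 bp in the transgenic and 3794 bp in the control group. Beyond the constant end the next bin, from 113100001, held means of 8019 and 8095 bp. The group means were thus close in the bins from 116200001 and 113100001.

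**Figure D2:**
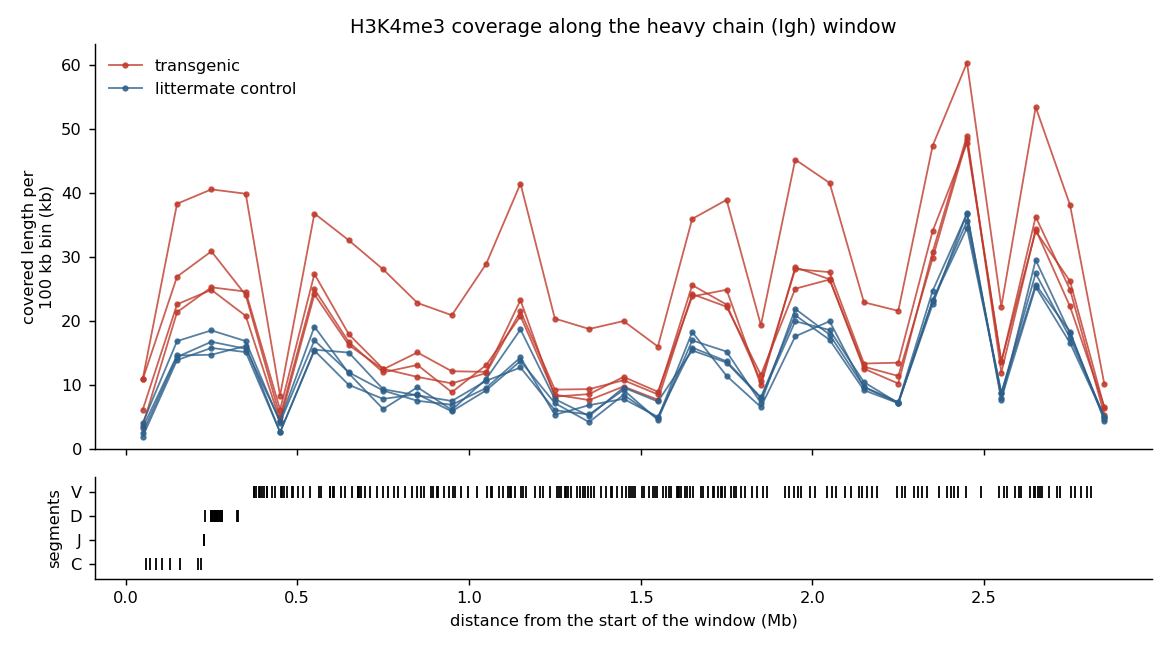
Covered length per 100 kb bin (kb) along the Igh window for each library, with the positions of constant (C), joining (J), diversity (D) and variable (V) segments below, against distance from the start of the window (Mb). The transgenic lines lie above all control lines in 27 of the 29 bins, and transgenic replicate 1 is the topmost line through most of the window.

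Peaks in Igh were many, and weak beside those at promoters. Away from protein-coding promoters the median fold enrichment at the summit, the authors' own value for each peak, was 4.60 to 5.27 per library, and the highest was 11.1 to 15.0. At protein-coding promoters over the genome the medians were 18.6 to 39.5. Over all peaks they were 5.10 to 6.53, so a low median was not particular to Igh. A fold of 10 or more was reached by 0.323 to 3.21% of the Igh peaks, 17.5 to 33.2% of all peaks and 73.5 to 89.6% of the promoter peaks. Medians in Igk, Igl and the Tcra and Tcrd window lay between 4.18 and 4.82, in the same low range, and 4 of the 1421 tested member regions touched a protein-coding promoter, against 11265 of 72683 regions tested in all.

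**Figure D3:**
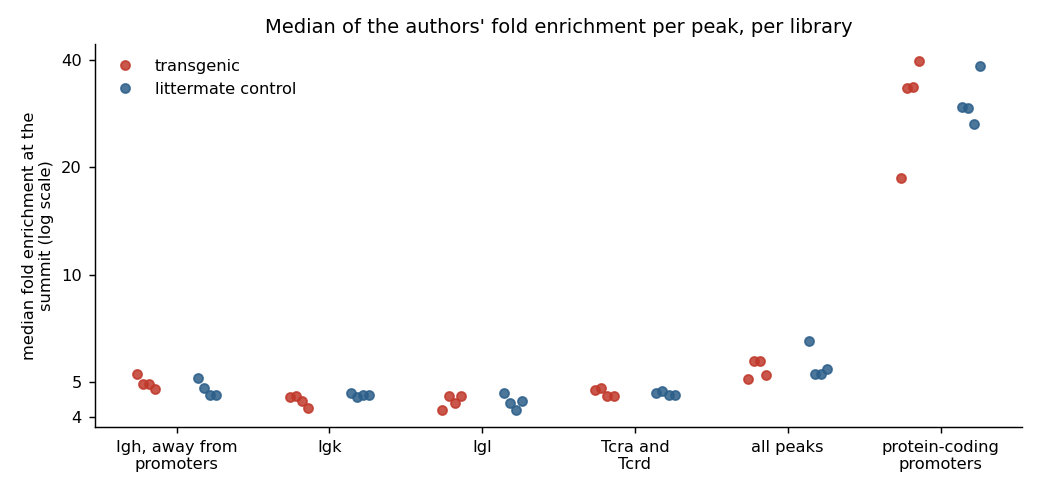
Median of the fold enrichment at the summit, as the authors' peak lists give it, per library and set of peaks, on a log scale. Medians in the 4 antigen receptor windows plotted (Tcrb, with 1 to 4 peaks per library, is left out) lie between 4.18 and 5.27 in both groups. Those of all peaks lie between 5.10 and 6.53, and those at protein-coding promoters between 18.6 and 39.5.

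Around the V segments of Igh, coverage was highest over the segment itself. At the midpoint of the segment 49.9% ± 7.75 of 184 V segments, pseudogenes included, were covered in transgenic and 35.9% ± 2.91 in control libraries (SD, n = 4 each). At 500 bp towards lower coordinates the values were 19.3% ± 7.12 and 9.38% ± 0.684. At 500 bp towards higher coordinates, which is the upstream side of segments that are read towards the constant genes, they were 34.5% ± 7.82 and 23.0% ± 3.70. At 1000 bp upstream coverage was lower (13.0 and 6.93%), and at 1500 bp it was 27.2 and 15.1%. The lowest transgenic library exceeded the highest control at each of these positions. Over the locus, 45.4% ± 9.06 of segment bases and 21.5% ± 6.26 of bases between segments were covered in transgenic libraries, and 30.5% ± 1.34 and 12.6% ± 0.316 in controls, so the difference was present within and between segments.

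**Figure D4:**
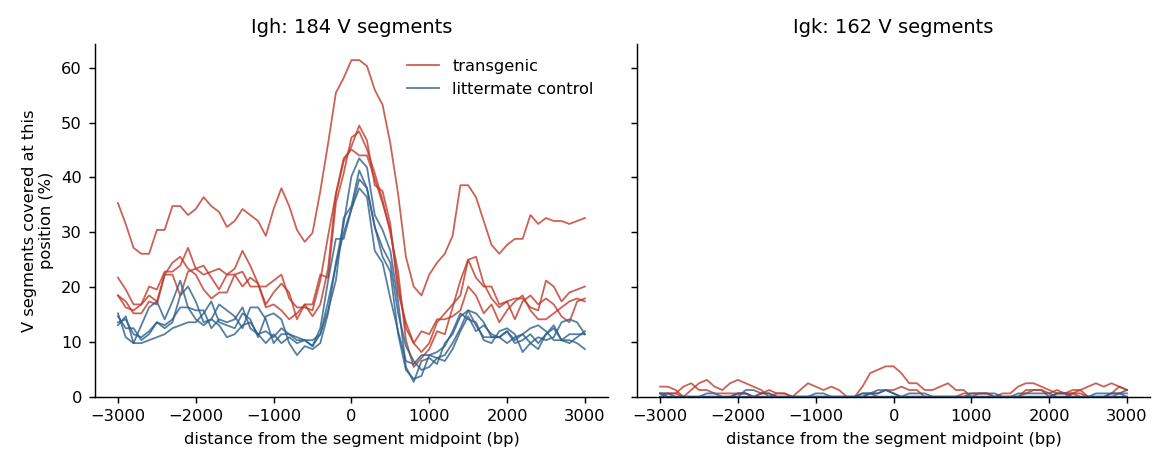
Share of V segments covered by a peak (%) at each distance from the segment midpoint (bp), 1 line per library, for Igh and Igk. In Igh all 8 lines rise over the segment, the transgenic ones to 45.1 to 61.4% and the control ones to 34.2 to 40.2% at the midpoint, while in Igk no library exceeds 5.56% there.

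Of the 216 Igh segments in the annotation, 56 had a peak in all 8 libraries and 47 in none. Transgenic libraries touched 157, 122, 132 and 124 segments, and control libraries 104, 109, 110 and 111, without overlap. No segment was touched in all 4 libraries of one group and none of the other. The share of V segments with a peak in all 8 was 35 of 121 among those not marked as pseudogenes and 15 of 63 among pseudogenes.

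The V families differed in how much they were covered. Within 1 kb of the segment, families of at least 4 members had from 4.04% (Ighv10, 4 segments) to 38.3% (Ighv8, 16 segments) of bases covered over all libraries. Ighv1, with 92 segments the largest family, had 30.6% ± 7.72 in transgenic and 20.3% ± 1.29 in control libraries, and Ighv5, with 21, had 25.2% ± 5.07 and 12.7% ± 1.12 (SD, n = 4 each). In both the groups do not overlap, whereas they do in Ighv8 (45.1% ± 12.7 and 31.4% ± 2.56) and Ighv6 (21.1% ± 7.60 and 10.5% ± 4.53). Among the 20 segments with the most covered bases in all 8 libraries were Ighv8-8, Ighv8-11, Ighv8-12, Ighv8-14, Ighv1-54, Ighv1-67, Ighv1-73 and Ighv1-80, each covered from end to end in every library. The V pseudogene Ighv8-10 was also covered whole but for a few bases in control replicate 4. Ighv11-2 (114048241 to 114048704) was covered over all of its 464 bp in the 4 transgenic and over 321, 398, 435 and 365 bp in the 4 control libraries. Ighv1-59 (115335057 to 115335513) had 457, 457, 457 and 418 bp against 341, 357, 356 and 260 bp, so that more of both segments was covered in every transgenic library. Such a separation was found in 11 of the 216 Igh segments, and the reverse in 0. Over all regions tested, which are a different unit, the shares were 3.26% and 0.169%. The 11 are few, and the count is not a result particular to segments. Ighv1-64 had the lower mean in the transgenic group (297 against 361 bp), with overlap.

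Constant region genes, which encode the antibody classes, were covered in part. Ighm, the IgM gene, had 3204, 2659, 1771 and 2315 of its 3905 bp covered in transgenic and 2376, 1913, 977 and 1216 bp in control libraries, and Ighd, the IgD gene, 6466, 3448, 3159 and 3731 of 8790 bp against 1553, 3524, 2212 and 2624 bp. The groups overlap in both. Ighg3 (1609 to 3383 against 855 to 1812 bp) and Ighg2b (1317 to 2272 against 419 to 1418 bp), 2 of the IgG genes, likewise had a peak in all 8 libraries with overlapping groups. Igha, the IgA gene, had a peak in 7 libraries, Ighe, the IgE gene, and Ighg1 in 6, and Ighg2c in 5. The 4 Ighj segments, of 48 to 54 bp, each had a peak in 5 to 7 libraries. Of 10 D segments 1 had a peak in all 8 libraries, and so had 1 of 10 D pseudogenes.

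A pair of noncoding genes with near-identical hairpins differed in coverage. Mir7094-1 and Mir7094-2 are microRNA genes in the V part of Igh, each with a hairpin of 60 bases. They differ at 1 base, A5G from Mir7094-1 to Mir7094-2, counted from 1 at the 5′ end and printed in capitals in the hairpins, and this base lies in the seed (bases 2 to 8, in capitals in the mature forms) of the 5p arm. The 3p arm, with the seed ACUCUGC, is the same in both.
Mir7094-1 hairpin, chr12:114469407-114469466, minus strand: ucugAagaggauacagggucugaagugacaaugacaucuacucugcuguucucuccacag
Mir7094-2 hairpin, chr12:114513635-114513694, minus strand: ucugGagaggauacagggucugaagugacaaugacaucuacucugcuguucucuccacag
mmu-miR-7094-1-5p: uCUGAAGAggauacagggucuga
mmu-miR-7094b-2-5p: uCUGGAGAggauacagggucuga
mmu-miR-7094-3p: uACUCUGCuguucucuccaca
Within 1 kb to each side Mir7094-1 had no peak in any library. Mir7094-2 had 815, 227, 541 and 743 bp in transgenic and 0, 888, 530 and 657 bp in control libraries, and a peak over the hairpin itself in 6 libraries. The pair thus differed in coverage, while the groups overlap at Mir7094-2. The sequence beyond the hairpins was not compared, so the flanks may differ more than the hairpins do.

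Over single regions, 1170 of the 1579 in Igh had a peak in at least 2 libraries. Of these 953 had a log2 difference above 0 and 217 below, with a median of 0.50 (0.33 without transgenic replicate 1), against 38241 of 72683 above 0 (52.6%) and a median of 0.03 over all regions. In 130 (11.1%) every transgenic library exceeded every control, against 3.26% of all regions and 4.68% of autosomal regions away from protein-coding promoters, and in 0 the reverse held, against 0.169%. With libraries scaled to the same total coverage these counts were 72 and 3, against 1.52% and 3.69% of all regions. An unadjusted limma p under 0.05 was found in 172 regions with higher and 0 with lower transgenic values, against 4.50% and 1.81% of all. Outside Igh, the log2 difference was above 0 in 72 of 101 tested regions in Igk and 49 of 71 in Igl. It was above 0 in 55 of 76 in Tcra with Tcrd and 1 of 3 in Tcrb. The medians in these windows were 0.47, 0.40, 0.68 and -0.08, in the same order.

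Of the Igh regions 2 rose in the transgenic libraries in limma after Benjamini-Hochberg adjustment over all 72683 regions, of which 33 (0.0454%) were called higher and 2 (0.00275%) lower. The region from 113313163 to 113315220 lies among the constant genes, between Ighg2b and Ighg1 and 4276 bp from the gene record LOC115488076. It had 1288, 1328, 1245 and 1070 bp covered in transgenic and 290, 299, 200 and 200 bp in control libraries, with no overlap. The difference was 1.84 ± 0.29 (log2 of bp + 100, SE, limma adjusted p = 0.00701). The other, from 115658022 to 115660580 over the pseudogene Gm6105, had 2358, 2277, 2437 and 2150 against 946, 1003, 1060 and 1639 bp, a difference of 0.86 ± 0.12 (log2, SE, limma adjusted p = 0.00425). Neither passed when equal numbers of top-ranked peaks were used (adjusted p = 0.379 and 0.170) or when a peak in at least 4 libraries was asked for (0.127 and 0.203), nor with the replicate number as a block (0.0784 and 0.131). The first also missed 0.05 at a −log10 q of at least 3 (0.0983) and without transgenic replicate 1 (0.0508), 2 (0.0886) or 3 (0.0653).

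Regions with a peak in all 4 transgenic and no control library numbered 18, all in Igh, against 288 of the 72683 regions tested (0.396%), and the reverse was found for none, against 13 (0.0179%). Of the 18, 1 touched a segment. The 5 widest were 663 to 1301 bp wide. The region from 115793210 to 115794068, 2323 bp from Ighv1-73, had 555, 658, 544 and 709 bp, and that from 113445059 to 113445819, 2395 bp from the D segment Ighd3-2, had 463, 708, 525 and 559 bp. Each had 0 bp in all 4 controls, and their limma adjusted p was 0.174 and 0.240. The regions from 113343218 near Ighg1 (1067, 705, 200 and 606 bp), from 113738889 near Ighv5-9-1 (391, 336, 437 and 637 bp) and from 115759069 near Ighv1-72 (662, 662, 281 and 357 bp) had limma adjusted p of 0.264, 0.376 and 0.360.

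None of the 3 Igh regions with the largest mean covered length passed the test, although in 2 of them every transgenic library exceeded every control. The region from 115614989 to 115618799, over the pseudogenes Gm5660 and Gm9245, had 3790, 3615, 3532 and 3582 against 3344, 3418, 3494 and 3265 bp, a centred log2 difference of -0.01 ± 0.06 (SE, limma adjusted p = 1.00). Its uncentred lengths do not overlap, and the sign of the centred difference turned in 7 of the other fits. Those from 115660655 to 115665603 (4109 to 4861 against 3058 to 4015 bp, without overlap, log2 0.21 ± 0.07) and from 115820184 to 115824684 (3893 to 4501 against 3024 to 3961 bp, with overlap, log2 0.13 ± 0.07) did not pass (SE, limma adjusted p = 0.539 and 0.702). The 2 regions with the smallest p towards lower values, from 113470595 over Ighd2-4 and from 113756333 near Ighv5-12-4, had a peak in 2 control libraries each, of 229 to 367 bp, and in no transgenic library (limma adjusted p = 0.702 for both).

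**Figure D5:**
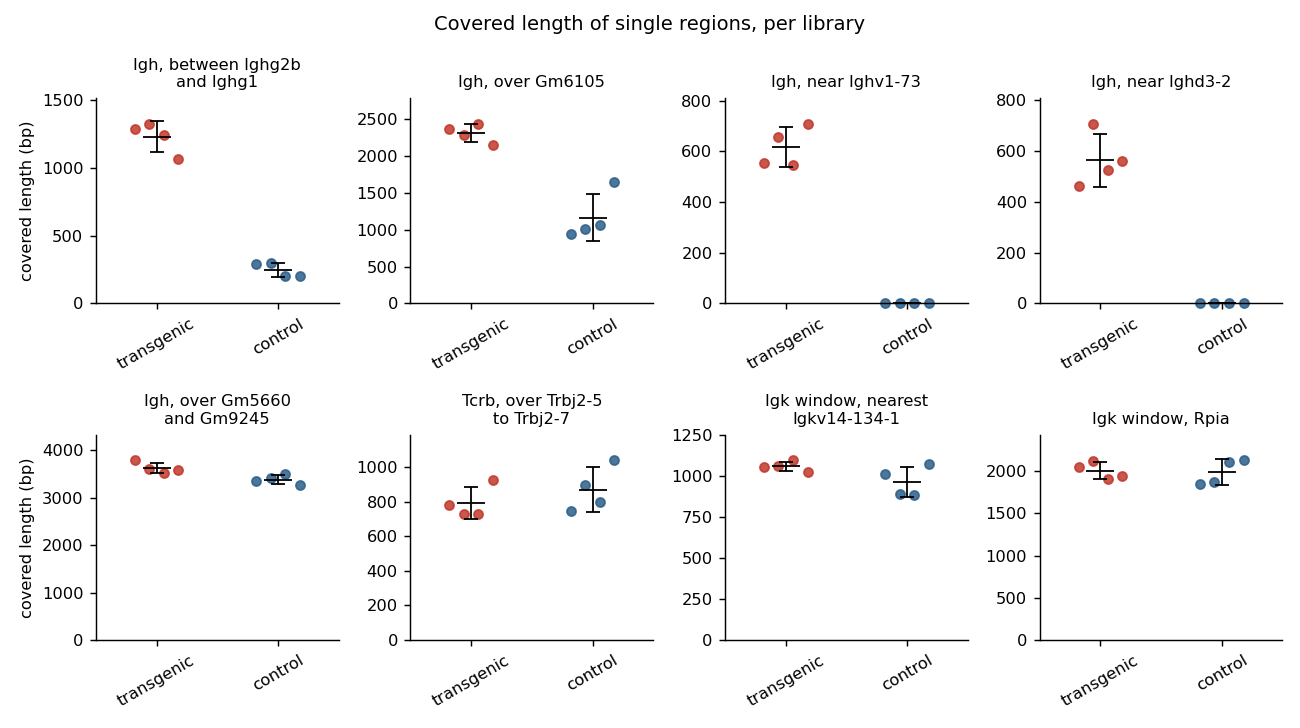
Covered length (bp) of 8 single regions, each point a library, the long tick the group mean and the bars 1 SD (n = 4 each). In the 4 Igh regions of the upper row all transgenic libraries lie above all controls, while in the lower row the groups lie close without overlap over Gm5660 and overlap in the other 3 regions.

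The groups overlapped at the genes with promoter peaks at the V end of the Igh window. Zfp386 had 1933, 1529, 1816 and 1759 bp covered over the gene in transgenic and 1796, 1588, 1643 and 1854 bp in control libraries. Vipr2, which encodes a receptor of vasoactive intestinal peptide, had 748, 759, 875 and 813 against 618, 764, 703 and 814 bp. Both genes lie in the last 100 kb bin of the window, together with the last V segments. Among the V and D segments, Adam6b had 585, 340, 240 and 283 bp against 0, 0, 217 and 0 bp, and the noncoding RNA gene Gm30996 had 3865 to 6091 against 2768 to 3299 bp, without overlap in either. Adam6a had 490, 275, 0 and 260 against 0, 653, 0 and 0 bp, with overlap.

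Igk, the larger window, was thinly covered. Covered lengths were 21610, 80605, 31244 and 12425 bp in transgenic and 18282, 12620, 13947 and 18954 bp in control libraries, 0.377 to 2.44% of the window. Transgenic replicate 2, with 243 peaks against 31 to 90 in the other 7, held the highest value, and the groups overlap. Much of its coverage lay away from the ends of the window. In the bin from 68000001, for instance, it held 7508 bp, against 225 to 2334 bp in the other 7. The transgenic mean exceeded the control mean by 20520 bp, and by 5809 bp without that library. Of 168 segments 147 had a peak in no library and none in all 8, and the constant gene Igkc and the 5 Igkj segments had none in any. Transgenic replicate 2 touched 16 segments, and the others 0 to 4. Of the 22 bins tested 1 stood apart, near the 4.94% of all bins. It starts at 69700001, with 504, 2803, 243 and 209 bp against 0 in all controls (log2 1.14 ± 0.48, SE, limma adjusted p = 0.628).

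Among the Igk regions covered most, 1 lay over Rpia and another at the V end. Rpia (70790672 to 70792983) had 2044, 2124, 1910 and 1941 against 1841, 1869, 2107 and 2127 bp. The groups overlap, with a centred log2 difference of -0.09 ± 0.09 (SE, limma adjusted p = 0.822). A region 16084 bp from Igkv14-134-1 (67693992 to 67695090) was likewise covered in all 8 libraries, with 1026 to 1095 against 884 to 1073 bp. It lies in the bin from 67600001, which alone held 5140 to 10190 bp in the transgenic and 4571 to 6044 bp in the control group. Among the Igk regions with the smallest p was 1 near Igkv1-108 (68314305 to 68315090), with 236, 561, 200 and 0 bp in transgenic and 0 bp in all control libraries, which did not pass adjustment (limma adjusted p = 0.702). On the lower side, regions near Igkv11-118 and Igkv2-109 had 200 to 385 bp in 2 and 3 control libraries and 0 and 233 bp at most in transgenic ones.

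Igl was covered less densely than Igh, over 2.53 to 8.94% of its window, and its coverage ran on into the neighbouring olfactory receptor genes. The mean coverage of its 100 kb bins still exceeded that of 85.1 to 92.3% of all bins. Transgenic libraries had 17085, 26835, 19595 and 10477 bp and controls 10005, 11873, 7588 and 10119 bp, 18498 ± 6759 against 9896 ± 1760 bp (SD, n = 4 each), with overlap. Beyond the window, the 4 bins from 19300001 to 19700000 held means of 3702 to 7502 bp in the transgenic and 1647 to 3482 bp in the control group, so the transgenic means were the higher ones there too. None of the 12 segments had a peak in all 8 libraries. Iglc1, a constant gene, had a peak in 5, Iglc3 in 3 and Iglc2 in 1. The noncoding RNA gene LOC105246083 had 895, 1325, 985 and 788 against 481, 522, 752 and 448 bp, without overlap. Of 71 regions tested 2 (2.82%) stood apart with higher transgenic values and 0 with lower, near the 3.26% and 0.169% of all regions. None passed in limma, the smallest p being at 19208087 to 19209055, 7852 bp from Iglj2 (448, 608, 803 and 573 against 228, 318, 0 and 328 bp, log2 1.23 ± 0.52, SE, adjusted p = 0.702).

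Tcrb had 1 region of H3K4me3 in all 8 libraries, over the second cluster of J segments. The region from 41543161 to 41544276 had 782, 727, 730 and 922 bp covered in transgenic and 745, 893, 796 and 1038 bp in control libraries (log2 -0.22 ± 0.20, SE, limma adjusted p = 0.765). The groups overlap. The segments Trbj2-5, Trbj2-7 and the pseudogene Trbj2-6 were covered whole in every library, Trbj2-4 at least in part in 6 and Trbj2-3 in 2. None of the 22 V segments, 13 V pseudogenes and 2 D segments had a peak in any library, nor had the constant genes Trbc1 and Trbc2. The trypsinogen genes that share the window, Try4, Prss1, Prss2 and Prss3, had none at the promoter. With 782, 1541, 930 and 1231 against 745, 1093, 796 and 1248 bp in the whole window, Tcrb showed no excess beyond the spread. The fold enrichment of its peaks reached 6.93 to 16.7.

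In Tcra and Tcrd the coverage lay at the V end alone. Transgenic libraries had 22906, 29943, 17096 and 11047 bp and controls 8851, 11046, 5525 and 13755 bp, with overlap, and 3 of the 17 bins, those from 52500001 to 52800000, held nearly all of it. The neighbouring bin outside, from 52400001, held 4640 and 2252 bp. Of 182 segments 171 had a peak in no library, among them all 38 J segments, 6 J pseudogenes, both D segments and the constant gene Trdc, and none had a peak in all 8. Of the 4 bins tested 1 stood apart, against 4.94% of all bins. It starts at 52500001, with 9077, 10876, 6732 and 5766 against 3485, 4522, 1804 and 5220 bp (log2 1.00 ± 0.32, SE, limma adjusted p = 0.565). Of 76 regions tested 2 (2.63%) stood apart with higher transgenic values, near the 3.26% of all regions. The smallest p belonged to the region from 52649941 to 52651304, 3513 bp from Trav7-1, with 1282, 789, 553 and 200 against 0, 0, 200 and 246 bp (log2 1.86 ± 0.65, SE, limma adjusted p = 0.551), in which the groups overlap. The widest, from 52669942 to 52671971, had 753 to 1518 against 780 to 1260 bp.

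Genes of lymphocytes and of recombination were examined beside the loci. Rag1, Rag2 and Dntt, which cut and extend the segments, had no peak within 2 kb of a gene end in any library, nor had Cd79b and Pax5, which mark B cells, or Cd3e, Cd3g and Cd8a, which mark T cells, or Ptprc, which marks leukocytes. General DNA repair genes that also act in joining, Prkdc, Dclre1c, Xrcc4, Xrcc5 and Lig4, and Hmgb1 had one in all 8. Of the B cell list, Cd79a, Cr2, Vpreb1, Sdc1, Prdm1 and Irf4 had a peak near either end in all 8 libraries, and of the T cell list Cd4, Tcf7 and Bcl11b. The annotation used gives no strand, so such a peak need not lie at the promoter of the gene named. Per library 6 or 7 of the 16 B cell genes had a peak in transgenic and 6 to 8 in control libraries, and 4 or 5 and 3 to 5 of the 17 T cell genes, so the counts overlap. At Cd79a, which encodes a chain of the B cell receptor complex, the covered length within 2 kb of the gene end was 658, 736, 1203 and 1145 bp in transgenic and 776, 773, 631 and 1205 bp in control libraries. At Vpreb1, a part of the surrogate light chain, it was 917, 1035, 987 and 971 against 606, 948, 947 and 1086 bp. The groups overlap at both genes.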

How the data were processed

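The submitters' processing notes name mm10 and, without settings, FastQC 0.11.5, SAMtools 1.3.1, Bowtie2 2.0.2, MACS2, deepTools 3.0.1, limma and DiffBind. The authors deposited 1 headerless peak list per library, whose deposited columns are position, score, fold enrichment (a ratio) at the summit, −log10 p-value and −log10 q-value. The lists hold no counts, so depth is unknown, and a deeper library can give more and wider peaks.

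Peaks were joined into regions and summed into 100 kb bins, features with a peak in fewer than 2 libraries being left out. Covered length, as log2(bp + 100) for regions and log2(bp + 500) for bins, was centred on each library's median over features present in all 8 and compared with limma 3.58.1 (trended, robust; R 4.3.3; Benjamini-Hochberg over the whole table, 0.05); this was tested on simulated data. Such log2 differences understate changes at low values. Groups are called apart where all 4 libraries of one exceed all 4 of the other. Segments were taken from RefSeq (GRCm38.p6), which gives no strand or exons here, so a gene counted as marked with a peak within 2 kb of either end. Members, gene lists and the rule for named regions (called, 3 with the largest mean covered length and 2 smallest p per direction and window, 5 widest in one group alone) were chosen with earlier results of these data known. Some regions and genes that these choices name are not reported here.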

Additional observations from a re-analysis of the deposited data

Results flagged for a closer look

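In groups of 4 libraries, a value was singled out where its gap to the nearest other, divided by the range of the group, exceeded Dixon's critical value at 95%, which chance gives in about 1 of 20 groups. For covered length by window this was the case for Igh in transgenic replicate 1 (883145 bp). Over the whole genome it was the case for control replicate 1 (37489869 bp). Among single regions it was control replicate 4 at Gm6105 in Igh (1639 bp), which lies above the other controls and below all transgenic libraries. The others were regions with a peak in 1 or all but 1 library of a group: transgenic replicate 2 near Igkv2-109 (233 bp), control replicate 4 near Gm35545 in Igl, without a peak (0 bp) where the other 3 had 200 or 201, control replicate 2 near Olfr164 in Igl (354 bp), and, near Try5 in Tcrb, transgenic replicate 2 (235 bp) and control replicate 4 (210 bp).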

How the results depend on the processing

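The depth of the libraries is unknown, so a region without a peak may lie below what a library could detect. Igh coverage was higher in the transgenic libraries in every alternative tried, by 158313 to 259166 bp under other scalings and peak thresholds and by 162914 to 282644 bp with 1 library left out. For Igk, Igl, and Tcra with Tcrd the difference ran from 5809 to 28536, 5823 to 11275 and 7222 to 13521 bp with 1 library left out, and for Tcrb from 10.5 to 263.5 bp; scaled to equal totals, Tcrb turned to -0.7 bp. The count of regions called over the genome (35 in the fit described) was 118 without centring, 10 on autosomes alone, and 0 where at least 4 libraries needed a peak or with equal numbers of top-ranked peaks, while that in the 5 windows (2) was 12 without centring, 1 at a −log10 q of at least 3, and 0 in the other 2. With 1 library left out they ran from 15 to 54 and from 1 to 5, the extremes being without transgenic replicate 1 and without control replicate 3 for both, and were 4 in the windows without control replicate 2. Bins called ran from 0 to 6 with 1 library left out. With the replicate number as a block both region counts were 0, and the 2 Igh regions had limma adjusted p of 0.0784 and 0.131. Same-numbered libraries did not deviate together in covered length (correlations of -0.125, -0.0955, -0.161 and -0.0503). These values cannot show whether such libraries share more than a number. Regions in all 4 transgenic and no control library numbered 10 with equal numbers of top-ranked peaks and 23 without transgenic replicate 1 (added after seeing the data), and the reverse 2 and 0. Igh regions apart numbered 72 when scaled (also added) and 137 without that library. Differences near 0 (log2) turned sign: Gm5660 to 0.0998 (no centring), 0.0308 (top-ranked) and 0.0085 (pseudocount 500 bp); Rpia to 0.0146, 52669942 on chromosome 14 to 0.083 and 41318539 on chromosome 6 to 0.028 without centring; and, at the higher −log10 q, 52669942 to 0.0559 and 52680324 to -0.088 (-0.0564 top-ranked). Leaving 1 library out, Gm5660 ran from -0.055 to 0.011, 52669942 from -0.192 to 0.137, 41318539 from -0.218 to 0.0784, 52680324 from -0.159 to 0.401, 52600364 from -0.118 to 0.605, 67693992 from -0.0198 to 0.0565, and 19236309 on chromosome 16 from -0.992 to 0.194. The cause of these shifts was not tested. Regions with a peak in few libraries gave no value under some of the stricter settings.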
